A study of Mus musculus with 6 samples.

Results

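The genes described here carry the MHC class I antigen presentation pathway of the mouse. They were chosen by name, as the entries of the embryo brain count table with the symbols B2m, H2-K1, H2-D1, Tap1, Tap2, Tapbp, Psmb8, Psmb9, Psmb10 and Nlrc5. All 10 were found among the 53801 genes of the table, and all 10 reached the count minimum of 10 reads summed over the embryos that 24739 genes passed. The RNA came from whole brains of 6 C57BL/6 embryos at stage E16.5, of which 3 were homozygous for a null allele of Bahd1 (Bahd1-/-, called Bahd1-KO) and 3 were wild type (Bahd1+/+, called Bahd1-WT), with no other treatment named. The mutation is constitutive, and homozygous animals were bred from heterozygous parents. BAHD1 is a scaffold protein of chromatin complexes that repress transcription, and the comparison asks whether transcript levels in the embryonic brain differ when it is missing.

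Class I molecules show peptides from inside the cell to cytotoxic T cells. Peptides are cut by the proteasome, whose catalytic subunits can be replaced by the immunoproteasome subunits, pumped into the endoplasmic reticulum by the TAP transporter, and loaded with the help of tapasin onto a heavy chain bound to beta-2-microglobulin. Interferons and NF-kB raise transcription of the whole pathway in most tissues, NLRC5 acts as its dedicated coactivator, and neurons are known for low class I expression.

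Most members lie together in the genome. On the GRCm38 assembly, with the GENCODE M21 gene models, 7 of the 10 genes lay on chromosome 17 between positions 33915899 and 35267499. This stretch of 1.35 Mb is part of the mouse MHC region. Psmb9, Tap1, Psmb8 and Tap2 were neighbours within 34.3 kb (34181987 to 34216321), and the gene models of Tap1 (plus strand) and Psmb9 (minus strand) faced away from each other with 212 shared bases. Tapbp (33915899 to 33929292, plus strand) and H2-K1 (33996017 to 34000347, minus strand) lay on one side of this cluster and H2-D1 (35262730 to 35267499, plus strand) on the other. Psmb10 (105935735 to 105938444, minus strand) and Nlrc5 (94434356 to 94527272, plus strand) were on chromosome 8. B2m lay on chromosome 2 (122147686 to 122153083, plus strand), the chromosome that also holds Bahd1, 3.22 Mb away from it.

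The start regions of the class I chains and B2m are shown because these genes share letters that the transcription factors of the pathway are known to read. RefSeq promoter windows on GRCm38.p6 were given for 8 of the 10 genes. Tap2 and Nlrc5 had no entry. The 250 bases upstream of each start (for H2-D1, Tap1, Tapbp, Psmb8 and Psmb9 wholly within exons annotated for these or overlapping genes) were searched on both strands for AANNGAAA (the core of an interferon regulatory factor element), GGG followed by any 5 bases and CC (an NF-kB site), TGACG (the X2 box) and CCAAT (the Y box), and matches to different motifs were counted even where they overlapped. In each of these stretches, capitals mark matches to these letters, and neighbouring capitals are overlapping or palindromic matches.
B2m, chr2:122147547-122147641, plus strand: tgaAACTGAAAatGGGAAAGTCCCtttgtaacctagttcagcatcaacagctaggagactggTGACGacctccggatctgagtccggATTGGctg
H2-K1, chr17:34000356-34000462, minus strand: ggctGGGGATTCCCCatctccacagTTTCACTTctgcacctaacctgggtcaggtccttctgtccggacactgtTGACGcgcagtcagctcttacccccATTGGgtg
H2-D1, chr17:35262923-35262951, plus strand: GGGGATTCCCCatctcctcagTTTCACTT
H2-D1, chr17:35262993-35263022, plus strand: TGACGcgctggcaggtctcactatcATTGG
Tap1, chr17:34187470-34187490, plus strand: TGACGacagaGGGTCCTGCCC

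In the printed stretches, H2-K1 and H2-D1 carried the 4 motifs in the same order and spacing. From the NF-kB letters to the Y box, which reads on the other strand here, 89 of the 100 bases were identical between them without a gap. B2m had the same 4 motifs, with the interferon element before the NF-kB letters in its printed stretch. Its window also held NF-kB letters upstream of that element, and the windows of H2-K1 and H2-D1 held further matches outside the stretches. These 3 genes were the only members with all 4 motifs, which 0.469% of the 32851 windows searched held. By single motif, AANNGAAA was in 3 of the 8 member windows and 21.3% of all windows, the NF-kB letters in 5 of 8 and 45.8%, TGACG in 5 of 8 and 17.8%, and CCAAT in 6 of 8 and 33.8%. The Tap1 stretch was read from the other strand in the Psmb9 window, since those genes start close together in opposite directions. These are matches of letters, and no binding was measured.

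Libraries held 61724000 to 91782802 counted reads. Bahd1, the targeted gene, had 2, 10 and 6 reads in Bahd1-KO replicates 1, 2 and 3 against 1971, 3102 and 3470 in Bahd1-WT, a log2 fold change of -8.40 (SE 0.606, adjusted p = 0.0462, edgeR), and it was the only gene past an adjusted p of 0.05. Bahd1-KO replicate 3 stood apart from the other 5 embryos. Ribosomal RNA genes, mitochondrial genes and Gm42418 took 48.7% of its reads against 3.10 to 6.27% elsewhere, and its TMM factor (trimmed mean of M-values, the scaling used for all levels here) was 0.684 against 1.04 to 1.107. The neuronal transcript Dcx stood at 33.0 TMM-scaled CPM (reads per 1000000 after that scaling) in this library and at 1865 to 3713 in the others, and Fabp7 of neural progenitors at 14.7 against 423 to 575. The summed level of the progenitor list was not low (1834 against 1602 to 2014), and Slc1a3 was at 294 against 235 to 374. Gene by gene, 6 of the 10 progenitor markers were lowest in this library and 3 were highest. All 8 lung epithelium markers were highest in it, with a summed level of 1399 against 14.8 to 28.4. So were 9 of 10 connective tissue markers, with 2834 against 449 to 525, beside 38.1% of all genes tested. The library therefore went against its label of brain in part of these markers, and the genotype differences of the 10 genes are given with it and without it. Leaving it out did not remove the difference in lung markers. Then 7 of 8 were still higher in Bahd1-KO, beside 49.2% of all genes, with a median log2 fold change of 2.46. None was called, and 4 had an unadjusted p under 0.05 (edgeR), beside 1.48% of all genes. Sftpc had 2 and 225 reads in Bahd1-KO replicates 1 and 2 against 0, 8 and 11 in Bahd1-WT.

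Among themselves the 10 genes spanned a wide range of levels in wild type brain. To compare genes, levels were divided by the length of their merged exons. This length was above that of the longest annotated transcript for every member except B2m (860 bases in both). It was 3381 against 1907 bases for Psmb8 and 2938 against 1874 for H2-K1. The choice sets the other members lower relative to B2m, and the order of close members rests on it. B2m, the invariant light chain, stood at 45.1 ± 9.79 TMM-scaled CPM per kb (SD, n = 3 Bahd1-WT embryos), above 97.1% of 24703 genes. It was 7.63 times as high as the next member, H2-D1, at 5.91 ± 1.31 per kb. Tapbp (4.58 ± 0.833 per kb) and Psmb10 (3.44 ± 1.34 per kb) followed, and the ranges of the Bahd1-WT embryos overlapped between H2-D1 and Tapbp and between Tapbp and Psmb10.

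H2-K1, the other classical heavy chain, stood at 1.22 ± 0.164 per kb, near the middle of all genes (percentile 51.3) and without overlap with Psmb10 above it. The low members were Tap1 (0.267 ± 0.0485 per kb), Tap2 (0.190 ± 0.102), Psmb8 (0.116 ± 0.0422), Nlrc5 (0.0565 ± 0.00747) and Psmb9 (0.0448 ± 0.0113). Tap1 did not overlap H2-K1, which was 4.56 times as high. Tap1 and Tap2, Tap2 and Psmb8, and Nlrc5 and Psmb9 overlapped as neighbours in this order, whereas Psmb8 and Nlrc5 did not. The light chain and tapasin were thus in the upper part of the transcriptome, and the immunoproteasome subunits Psmb8 and Psmb9 and the coactivator in its lower part (percentiles 28.9, 18.6 and 20.99).

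**Figure D1:**
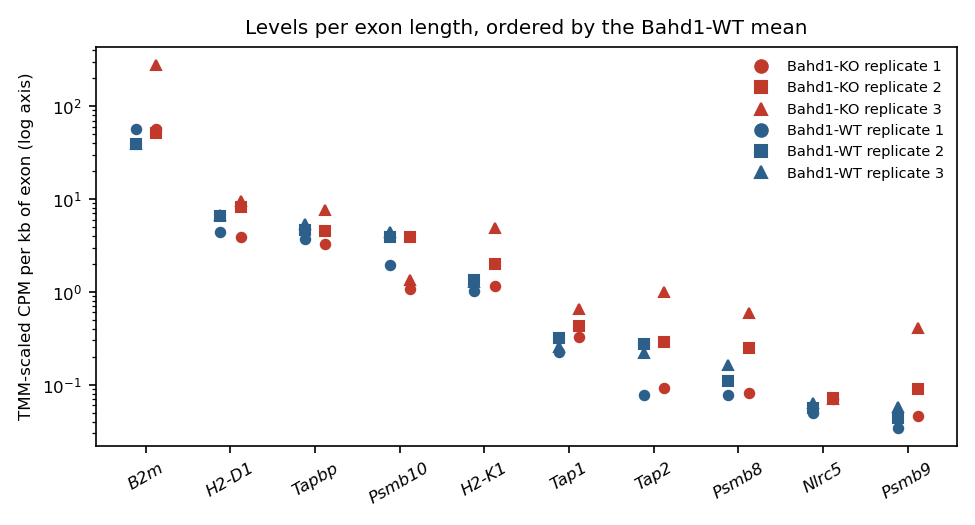
Level of each gene in each embryo in TMM-scaled CPM per kb of merged exon (log axis), with genes ordered by their Bahd1-WT mean. Points are embryos, blue for Bahd1-WT and red for Bahd1-KO. B2m lay above the rest in every embryo, and the triangle of Bahd1-KO replicate 3 was the highest point for 8 of the 10 genes.

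Across genotypes, none of the 10 genes passed an adjusted p of 0.05 in the edgeR quasi-likelihood test, and none reached an unadjusted p of 0.05. Over all 24739 genes, 0.00404% passed the first threshold and 4.67% the second (4.51% with a higher value in Bahd1-KO). DESeq2 also called none of the 10. The log2 fold change was positive for 9 genes (8 when scaled by total counts, 6 with embryo quality weights) and negative for Psmb10, with a median of 0.97, while the median of all genes was 0.06 and 53.8% of all genes were positive. Without Bahd1-KO replicate 3, 8 were positive, the median of the 10 was 0.27 (all genes -0.01, 49.2% positive) and the lowest adjusted p of edgeR was 0.981. No member was called then at an adjusted or unadjusted p of 0.05, beside 0.0171% and 1.48% of all genes. That library held the highest value of 8 of the 10 genes, as it did for 38.1% of all genes tested. The summed level of the 10 genes was 319 TMM-scaled CPM in it and 78.7 to 99.2 in the other 5, a ratio of 3.72 to their mean. In whole tissue, fewer cells of a type and less RNA per cell cannot be told apart.

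Of the 3 members that reach the cell surface, B2m differed most between libraries. It was at 48.5, 44.1 and 238 TMM-scaled CPM in Bahd1-KO replicates 1, 2 and 3, against 48.5, 34.0 and 33.8 in Bahd1-WT replicates 1, 2 and 3. Bahd1-KO replicate 3 was 5.71 times the mean of the other embryos, and the remaining Bahd1-KO values lay within the Bahd1-WT range. The log2 fold change of 1.51 (SE 0.670, adjusted p = 0.696, edgeR) became 0.24 without this library (adjusted p = 0.981).

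H2-K1, which presents peptides to CD8 T cells, had levels of 3.40, 5.79 and 14.3 TMM-scaled CPM in Bahd1-KO, while Bahd1-WT had 3.03, 3.92 and 3.78. Replicate 2 of Bahd1-KO was also above all Bahd1-WT embryos, and replicate 1 was within them. The difference was 1.13 on the log2 scale with an SE of 0.550 (adjusted p = 0.696, edgeR), and 0.36 without Bahd1-KO replicate 3. H2-D1, the second classical heavy chain of this strain, was at 10.01, 21.1 and 24.5 in Bahd1-KO, compared with 11.3, 16.9 and 17.5 in Bahd1-WT. The Bahd1-WT values lay inside the range of Bahd1-KO, whose replicate 1 was the lowest embryo of all. Its edgeR estimate was a log2 fold change of 0.28 with an SE of 0.395 (adjusted p = 0.808). The value was 0.03 without replicate 3 of Bahd1-KO and -0.20 when limma voom weighted the embryos by quality.

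The balance of the heavy chains was compared within each library, where the scaling plays no part. H2-D1 had 2.94, 3.65 and 1.72 reads for each H2-K1 read in Bahd1-KO, while Bahd1-WT had 3.74, 4.30 and 4.63. All Bahd1-KO values lay under all Bahd1-WT values, also without Bahd1-KO replicate 3, with the nearest pair at 3.65 and 3.74. An exact two-sided permutation test gave p = 0.1, the smallest that 3 against 3 embryos allow, and an adjusted p of 0.175 over the 7 ratios computed. The 7 ratios were picked with the gene values known. Heavy chains resemble other class I genes in sequence: 4.70% of the 65-base windows of H2-K1 transcripts and 6.68% of those of H2-D1 also occurred in transcripts of other genes, mostly H2-Q10 for the first and H2-Q1 for the second. Reads from such windows cannot be assigned to 1 gene by sequence.

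B2m per heavy chain read (H2-K1 and H2-D1 summed) was 3.61, 1.64 and 6.14 in Bahd1-KO, compared with 3.38, 1.64 and 1.59 in Bahd1-WT. The genotypes overlapped (exact permutation p = 0.3, adjusted p = 0.35). Replicate 1 was above 3 in both genotypes, as was Bahd1-KO replicate 3. Replicate 2 of both genotypes and Bahd1-WT replicate 3 were at 1.59 to 1.64.

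**Figure D2:**
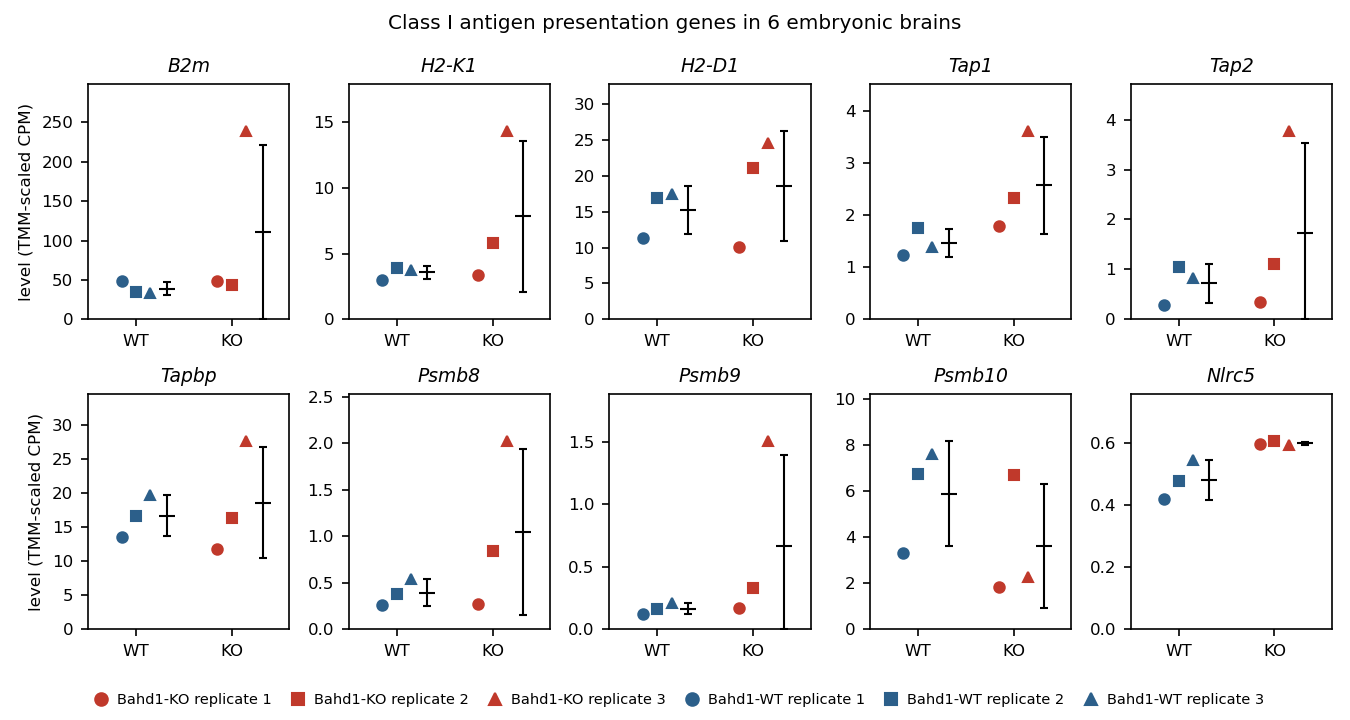
Level of each gene in TMM-scaled CPM by embryo, Bahd1-WT on the left and Bahd1-KO on the right of each panel. Black bars are the mean and SD of 3 embryos, with the lower bar stopped at 0. In most panels the spread of Bahd1-KO came from replicate 3 (triangle), while Nlrc5 had nearly equal values in the Bahd1-KO embryos and Psmb10 was low in replicates 1 and 3.

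Tap1 and Tap2 encode the chains of the peptide transporter. Tap1 was at 1.80, 2.33 and 3.61 TMM-scaled CPM in Bahd1-KO, while Bahd1-WT had 1.24, 1.76 and 1.39 (118, 197 and 195 reads against 119, 155 and 140). Every Bahd1-KO value was above every Bahd1-WT value, the nearest pair being 1.80 and 1.76. The genotypes did not overlap for 2 of the 10 genes, Tap1 and Nlrc5, beside 6.71% of all genes. For Tap1 this did not hold once the scaling was recomputed without Bahd1-KO replicate 3. With all embryos edgeR gave a log2 fold change of 0.82 with an SE of 0.419 (adjusted p = 0.696), and without that library 0.49.

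Tap2 had fewer reads, 23, 93 and 203 in Bahd1-KO, compared with 28, 92 and 83 in Bahd1-WT. Its levels were 0.351, 1.10 and 3.76 against 0.292, 1.04 and 0.822 TMM-scaled CPM. In each genotype replicate 1 was the lowest, and only replicate 3 of Bahd1-KO lay well above the Bahd1-WT range. Its value of 1.27 on the log2 scale (SE 0.891, adjusted p = 0.696, edgeR) became 0.03 without Bahd1-KO replicate 3, and it was -0.41 in the fit with embryo quality weights. Tap1 had 5.13, 2.12 and 0.961 reads for each Tap2 read in Bahd1-KO, while Bahd1-WT had 4.25, 1.68 and 1.69 (exact permutation p = 1).

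Tapbp encodes tapasin, which bridges TAP and the empty heavy chain. It stood at 11.8, 16.3 and 27.5 TMM-scaled CPM in Bahd1-KO, compared with 13.6, 16.7 and 19.6 in Bahd1-WT. Replicate 1 of Bahd1-KO was the lowest embryo, replicate 3 the highest and replicate 2 within the Bahd1-WT range. At 0.16 with an SE of 0.372 (adjusted p = 0.890, edgeR), its log2 fold change was the nearest to 0 of the 10. Its sign was not stable: it was -0.25 without Bahd1-KO replicate 3 and -0.13 when levels were scaled by total counts.

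Of the immunoproteasome subunits, Psmb8 and Psmb9 had few reads and high values in Bahd1-KO replicate 3. Psmb8 (the LMP7 subunit) had 18, 71 and 109 reads in Bahd1-KO, while Bahd1-WT had 25, 33 and 55, which are 0.275, 0.841 and 2.02 against 0.261, 0.374 and 0.545 TMM-scaled CPM. Replicates 2 and 3 of Bahd1-KO were above Bahd1-WT and replicate 1 was at its lower end. Its genotype difference, a log2 fold change of 1.403 with an SE of 0.750 (adjusted p = 0.696, edgeR), was 0.52 without Bahd1-KO replicate 3.

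Psmb9 (the LMP2 subunit) was at 0.168, 0.332 and 1.50 TMM-scaled CPM in Bahd1-KO, compared with 0.125, 0.159 and 0.208 in Bahd1-WT, from 11, 28 and 81 reads against 12, 14 and 21. Its log2 fold change, 2.005 (SE 0.860, adjusted p = 0.696, edgeR), was the largest of the 10, and Bahd1-KO replicate 3 exceeded the mean of the other embryos 7.57 times. Without it the value was 0.61. At such counts the exact 95% Poisson interval of Bahd1-KO replicate 1 (0.0838 to 0.300) held all 3 Bahd1-WT levels, so a difference of that embryo was not detectable at this depth. Intervals here cover counting error only.

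Psmb10 (the MECL-1 subunit) went the other way from its partners. It was at 1.85, 6.70 and 2.26 TMM-scaled CPM in Bahd1-KO, while Bahd1-WT had 3.29, 6.71 and 7.60. Replicate 2 of Bahd1-KO lay within the Bahd1-WT range, and the low embryos were Bahd1-KO 1, Bahd1-KO 3 and Bahd1-WT 1. In edgeR the log2 fold change came to -0.70 with an SE of 0.599 (adjusted p = 0.708), and to -0.45 without Bahd1-KO replicate 3. That library was at 0.432 times the mean of the others.

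Psmb8, Psmb9 and Psmb10 take the places of the constitutive catalytic subunits Psmb5, Psmb6 and Psmb7. Psmb5 was at 4.46, 14.1 and 3.23 TMM-scaled CPM in Bahd1-KO, compared with 6.99, 12.3 and 19.0 in Bahd1-WT (log2 fold change -0.81, and -0.46 without Bahd1-KO replicate 3), and Psmb6 at 51.5, 112 and 36.1 against 70.4, 101 and 152 (-0.70, and -0.40 without it). Both were lowest in the same embryos as Psmb10, whereas Psmb7 varied from 100 to 141 (-0.07 and 0.01). Reads of Psmb8 were 6.16, 5.96 and 62.6% of those of Psmb5 in Bahd1-KO, while Bahd1-WT had 3.74, 3.04 and 2.87%.

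Reads of Psmb9 were 0.326, 0.296 and 4.16% of Psmb6 in Bahd1-KO, compared with 0.178, 0.158 and 0.137% in Bahd1-WT. In both pairs all Bahd1-KO embryos were above all Bahd1-WT embryos, with and without replicate 3 of Bahd1-KO, at the smallest p that the exact permutation test can give (p = 0.1, adjusted p = 0.175). The third pair did not follow: Psmb10 was 1.42, 5.57 and 2.25% of Psmb7 in Bahd1-KO, while Bahd1-WT had 2.74, 6.27 and 5.38% (exact permutation p = 0.3, adjusted p = 0.35). Within the immunoproteasome, Psmb10 had 4.17, 5.72 and 0.642 reads for each read of Psmb8 and Psmb9 together in Bahd1-KO, compared with 8.51, 12.6 and 10.11 in Bahd1-WT, again without overlap (exact permutation p = 0.1, adjusted p = 0.175). Psmb5, Psmb6 and Psmb10 enter these ratios and were low in the same embryos, so the ratios are not independent of each other. Of the 7 ratios, picked with the gene values known, 4 did not overlap, and the share of other gene pairs without overlap was not computed. None of the ratios passed an adjusted p of 0.05. The longest annotated transcripts were 56.5% G and C bases for Psmb10 and 40.8% for Psmb7. The shares were 52.5 and 56.6% for Psmb8 and Psmb5, and 54.1 and 51.6% for Psmb9 and Psmb6. The part of base composition in these ratios was not tested.

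**Figure D3:**
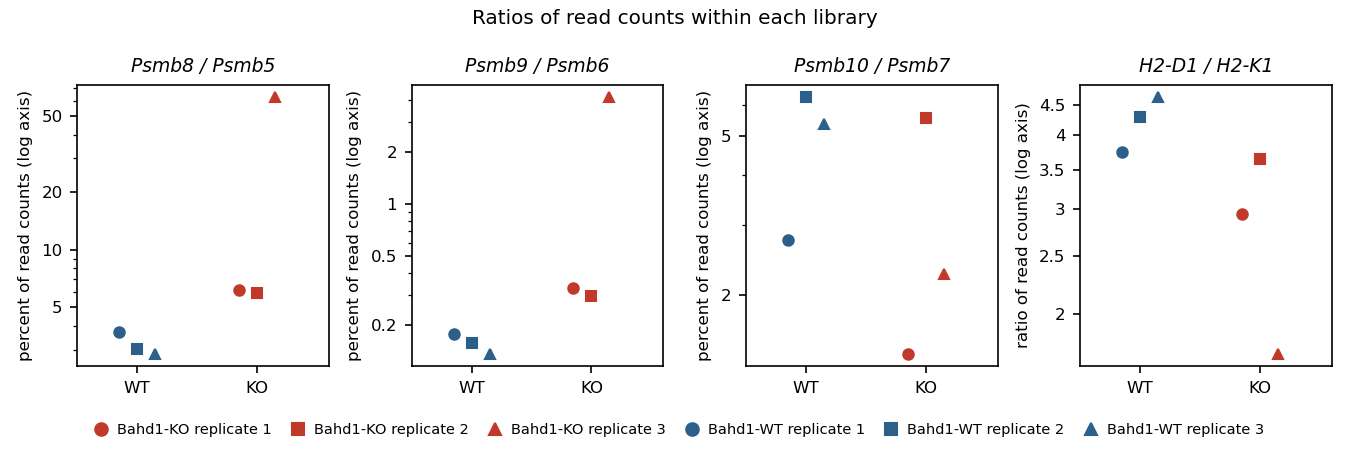
Read counts of 1 gene over another within each library, Bahd1-WT on the left and Bahd1-KO on the right (log axes, percent in the first 3 panels, a plain ratio in the last). Psmb8 over Psmb5 and Psmb9 over Psmb6 were higher in every Bahd1-KO embryo, H2-D1 over H2-K1 was lower in every one, and Psmb10 over Psmb7 overlapped.

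Nlrc5, the coactivator known to act at the heavy chain, B2m, TAP and immunoproteasome genes, was measured at 39, 51 and 32 reads in Bahd1-KO, while Bahd1-WT had 40, 42 and 55. Its levels were 0.595, 0.604 and 0.593 TMM-scaled CPM in Bahd1-KO, compared with 0.418, 0.476 and 0.545 in Bahd1-WT. The genotypes did not overlap with Bahd1-KO replicate 3 or without it (10.8% of all genes in the second case), and this library did not stand apart for Nlrc5, at 1.12 times the mean of the others. Its log2 fold change of 0.32 (SE 0.410, adjusted p = 0.795, edgeR) was 0.31 without it. Counting error was wide: the 95% Poisson interval of Bahd1-KO replicate 3 ran from 0.406 to 0.837 and that of Bahd1-WT replicate 3 from 0.410 to 0.709.

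**Figure D4:**
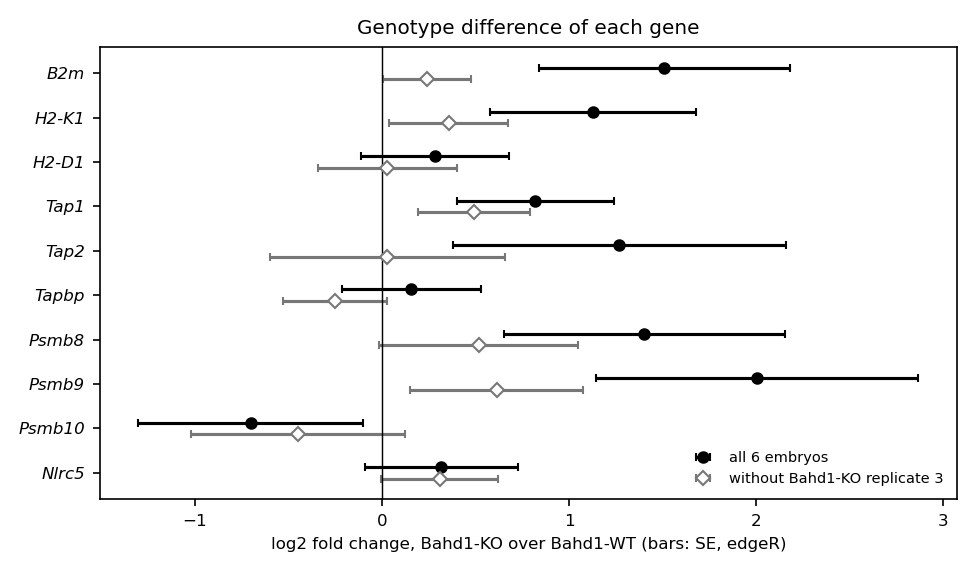
Log2 fold change of Bahd1-KO over Bahd1-WT for each gene from edgeR, with bars of 1 SE, from all 6 embryos (black) and without Bahd1-KO replicate 3 (grey). Values of B2m, Tap2 and Psmb9 moved most towards 0 when that library was left out, and Nlrc5 stayed at 0.32 and 0.31.

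The other class I heavy chains include the nonclassical H2-Q, H2-T and H2-M molecules, CD1d and MR1. Of 19 genes, 15 passed the count minimum, with 11 higher and 4 lower in Bahd1-KO. None passed the adjusted threshold, and 2 had an unadjusted p under 0.05 (edgeR), beside 4.67% of all genes. The median log2 fold change was 0.35, and 0.25 without Bahd1-KO replicate 3. Mr1, which presents vitamin B metabolites, was at 5.45, 3.94 and 41.2 TMM-scaled CPM in Bahd1-KO, while Bahd1-WT had 4.31, 3.54 and 2.94. H2-Q4 was at 1.31, 1.92 and 7.65 against 0.909, 1.12 and 1.22, without overlap, and its log2 fold change of 1.74 was 0.57 without Bahd1-KO replicate 3. H2-T10 had only 14, 10 and 10 reads against 7, 7 and 10, with a log2 fold change of 1.02 with that library and 0.93 without it (adjusted p = 0.696 and 0.981, edgeR). Cd1d1, which presents lipids, was lowest in Bahd1-KO replicate 3 (5.41, and 9.39 to 15.1 elsewhere), and its log2 fold change turned from -0.17 to 0.12 without it.

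Among 17 further genes of peptide supply and loading, 9 were higher and 8 lower, none was called, and the median was 0.05, or 0.01 without Bahd1-KO replicate 3. Erap1, the trimming peptidase of the endoplasmic reticulum, was at 68.5 TMM-scaled CPM in Bahd1-KO replicate 3 and 6.81 to 10.8 elsewhere. The loading complex members Pdia3 and Calr had log2 fold changes of 0.51 and 0.12, which were 0.06 and -0.10 without this library. The proteasome activator subunits Psme1 and Psme2 were at -0.21 and -0.12, and at -0.18 and -0.11 without it. This list as a whole centred near 0.

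Regulators of the pathway were 12 higher and 9 lower of 21, with no call and a median of 0.10. Without Bahd1-KO replicate 3 the balance turned, with 8 higher, 13 lower and a median of -0.04. Irf1, an interferon-induced activator of Tap1, Psmb9 and Nlrc5, was at 1.24, 1.58 and 13.8 TMM-scaled CPM in Bahd1-KO, compared with 1.26, 1.52 and 2.0 in Bahd1-WT, so its log2 fold change of 1.80 became -0.19 without Bahd1-KO replicate 3. Irf2 (1.16 and -0.04) and Ifngr1, a chain of the interferon gamma receptor (0.79 and 0.01), also moved towards 0. Creb1, which binds the X2 box, and Jak1, which signals from interferon receptors, had values of 0.20 and 0.10, and of 0.23 and 0.03 without it.

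Interferon-stimulated genes were highest in Bahd1-KO replicate 3 for 18 of 20, beside 38.1% of all genes tested. Their summed level was 216 TMM-scaled CPM in it, against 48.9 to 62.5 in the other embryos. None was called, and 3 had an unadjusted p under 0.05 (edgeR), beside 4.67% of all genes. The median log2 fold change of 0.80 was 0.04 without this library. Iigp1, an interferon-inducible GTPase, stood at 104 in it and 0.272 to 0.702 elsewhere. Rsad2 (viperin) had 97, 110 and 337 reads in Bahd1-KO, while Bahd1-WT had 42, 37 and 40. It did not overlap in either case, with a log2 fold change of 2.84 from all embryos and 1.72 without replicate 3 of Bahd1-KO. DESeq2 without that library gave Rsad2 an adjusted p of 0.00353, whereas edgeR gave 0.981.

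MHC class II genes were also low in these brains and mostly highest in Bahd1-KO replicate 3 (9 of 10, beside 38.1% of all genes). The median log2 fold change was 1.55 with this library and 0.00 without it, with no call. An unadjusted p under 0.05 (edgeR) was reached by 2 of the 10, beside 4.67% of all genes. H2-Ob, with 7 to 30 reads per embryo, was higher in every Bahd1-KO embryo. Its log2 fold change of 1.78 became 1.12 without Bahd1-KO replicate 3, again without overlap. H2-DMa was the only gene with a negative value from all embryos (-0.65, and -0.42 without that library), and the only one lowest in it. Cd74, the invariant chain of antigen-presenting cells, was at 0.137, 0.651 and 4.60 TMM-scaled CPM in Bahd1-KO, compared with 0.376, 0.295 and 0.327 in Bahd1-WT.

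Markers of cells that express class I strongly were set beside these results. Over all genes tested, 38.1% were highest in Bahd1-KO replicate 3. Endothelial markers summed to 819 TMM-scaled CPM in this library and 282 to 347 in the other 5 embryos, with 8 of 10 genes highest there. Leucocyte markers summed to 33.9 against 4.18 to 7.85 (9 of the 12 tested highest there), although the T cell genes Cd3e and Cd3g had 8 reads or fewer in any embryo. Microglia and macrophage markers moved less, 154 against 110 to 126, with 7 of 12 highest in this library and none at 0 in any embryo. Neuron markers summed to 2555 against 8523 to 10685. Without Bahd1-KO replicate 3, the 2 remaining Bahd1-KO embryos had microglia sums of 113 and 110 against 113 to 126 in Bahd1-WT, and endothelial sums of 307 and 305 against 282 to 347. The part of these cells, and of the ribosomal share, in the class I values was not tested.

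**Figure D5:**
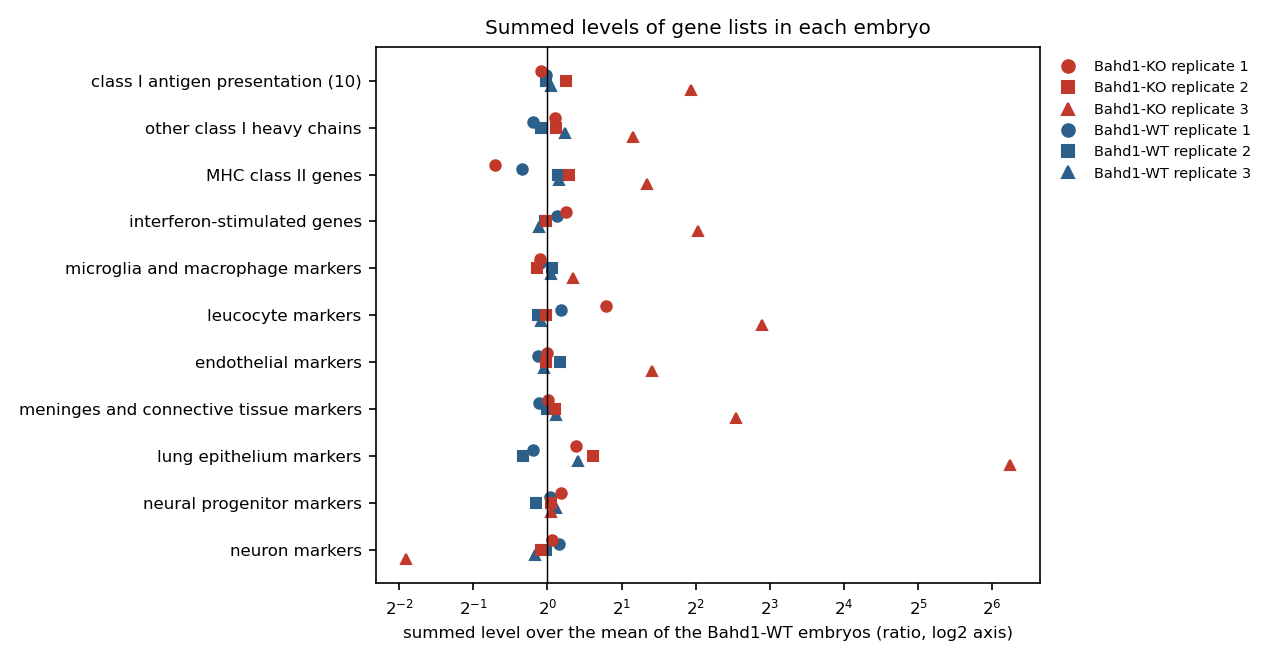
Summed TMM-scaled CPM of each gene list in each embryo, divided by the mean of the 3 Bahd1-WT embryos (log2 axis). The triangle of Bahd1-KO replicate 3 lay above the other points for the class I genes, class II genes, interferon-stimulated genes and the non-neural marker lists plotted, and below them for neuron markers, while the other embryos lay closer together. Blood markers, not plotted, summed to 420 in this library and 133 to 592 in the others.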

How the data were processed

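Polyadenylated RNA of 6 embryonic brains was sequenced (3 Bahd1-KO, 3 Bahd1-WT, grouped and numbered by sample titles). The deposited values are whole-number read counts for each gene and embryo, with no normalization or filter by the authors. Per the study's methods, stranded TruSeq libraries were read as 65-base single ends in repeated technical runs and counted over Ensembl exons of GRCm38 in strand-specific mode. The submitters' processing notes name cutadapt 1.11, STAR 2.5.0a and featureCounts 1.4.6-p3. The supplementary methods also name TopHat2 and a paired-end run with shorter reads. Which aligner and run made this table is not stated there. The shares of windows found in other genes were computed for 65 bases only. Counting by position can misplace reads of similar class I genes.

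Genes with a summed count of at least 10 were tested with the two-sided quasi-likelihood test of edgeR 4.0.16 (R 4.3.3), with TMM factors and no term besides genotype. p-values were adjusted by Benjamini and Hochberg over all 24739 genes, with 0.05 as the threshold. SE came from the same model. Levels are counts per 1000000 of the TMM-scaled library, as mean ± SD. Levels per kb used merged exons of GENCODE M21, which matched 99.8% of genes. Ratios of read counts were compared by exact permutation over embryos. The script was checked on simulated counts. These held no outlying library, so the check does not show what the test could detect in these embryos. The embryos are labelled as separate samples, and p-values measure only the spread between them.

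The members and gene lists were chosen with earlier results of these data known. Named further genes were, per pathway list, the 3 with the lowest p-value and the 2 with the highest mean level, 2 per marker list, and the 5 most like the members' mean. Psmb5, Psmb7, Psme1 and Psme2 were added as partners of members, and Cd3e and Cd3g to show their low counts. Alternatives were other filters, scalings and tests (DESeq2 1.42.0, the edgeR likelihood ratio test, limma 3.58.1 voom with quality weights), a replicate block, each embryo left out, and ribosomal and mitochondrial genes left out. Replicate numbers were not taken as pairs. The correlation of deviations from the genotype means between same-numbered embryos was 0.24, 0.34 and -0.12 over 14825 genes. The Bahd1-KO mean in this check includes replicate 3, so the check cannot exclude a factor shared by replicate number. Among Bahd1-WT embryos, Bahd1-KO replicates 1 and 3 correlated most with replicate 1 on log2 levels (Pearson r = 0.988 and 0.767). Bahd1-KO replicate 2 correlated most with Bahd1-WT replicate 2 (0.991, beside 0.989 with Bahd1-WT replicate 3). The study had named Bahd1-KO replicate 3 a possible outlier and repeated its own analysis without it. No embryo was dropped from the main results here.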

Additional observations from a re-analysis of the deposited data

How the results depend on the processing

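No member passed the adjusted threshold under any of 20 alternatives, where the lowest adjusted p of a member was 0.235. Of 299 values recomputed, 264 kept direction and side of the threshold. The log2 fold change of Tapbp changed sign with total counts (-0.13), quality weights (-0.28), the block without Bahd1-KO replicate 3 (-0.13), and with Bahd1-KO replicate 3 left out (-0.25 in edgeR and DESeq2) or Bahd1-WT replicate 1 left out (-0.0065), and ranged from -0.25 to 0.40 with each embryo left out. With quality weights H2-D1 was -0.20 and Tap2 -0.41. The members' median was 0.26 with quality weights, 0.26 with the block without Bahd1-KO replicate 3, 0.27 by DESeq2 without that embryo, and 0.27 to 1.26 with each embryo left out. Scaling by total counts moved the median of all genes from 0.06 to -0.11, and upper-quartile factors to 0.17. All genes called numbered 1, against 0 with at least 10 counts in every embryo (452 at an unadjusted p under 0.05, Bahd1 itself not tested), 8 by DESeq2, 6 by the likelihood ratio test, 6 with quality weights, 0 with ribosomal and mitochondrial genes left out (1092 unadjusted), 11 by DESeq2 without Bahd1-KO replicate 3, and 0 to 4 with each embryo left out. Bahd1 was -8.41 (adjusted p = 0.0546) with ribosomal and mitochondrial genes left out and -8.78 to -8.01 with each embryo left out, where its call held only without Bahd1-KO replicate 3 (adjusted p = 0.0158) and was lost in the other 5 fits (adjusted p = 0.107 to 0.685). With replicate number as a block, 0 genes were called (517 unadjusted) and Bahd1 was -8.49 (adjusted p = 0.229). With the block and without Bahd1-KO replicate 3, 16 were called. In that fit 2171 of 23334 genes had an unadjusted p under 0.05, beside 345 without the block (edgeR). In the wider lists 1 gene was called in each of 2 settings, Sftpc by the block without Bahd1-KO replicate 3 and Rsad2 by DESeq2 without it. The causes were not tested. Psmb8, Psmb9, Tap2 and Nlrc5 had 11 to 203 reads per embryo, which limits what their levels can show.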

Other observations

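The genes whose log2 level was most like the mean of the 10 class I genes over the 6 embryos were Herpud1 (Pearson r = 0.996), P4ha2 (0.996), Dlec1 (0.993), Cbr2 (0.991) and H2-T22 (0.990). Without Bahd1-KO replicate 3 their values were 0.985, 0.984, 0.973, 0.985 and 0.959. These are descriptions over few embryos that share library scaling, and 752 of 14818 candidates exceeded 0.9. H2-T22, itself a nonclassical class I gene, was at 1.83, 3.01 and 5.65 TMM-scaled CPM in Bahd1-KO and 1.96, 2.39 and 2.82 in the wild type embryos. In Bahd1-KO replicate 1 and Bahd1-WT replicate 1 the mean log2 level of the class I genes was nearly equal, at 1.12 and 1.08, while Bahd1-KO replicates 2 and 3 stood at 1.90 and 2.75 and Bahd1-WT replicates 2 and 3 at 1.53 and 1.59.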
